A study of Mus musculus with 10 samples.

Results

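The genes described are the enzymes and the chaperone that shape collagen inside the cell and crosslink it outside: the lysyl oxidases Lox, Loxl1, Loxl2 and Loxl3, the lysyl hydroxylases Plod1, Plod2 and Plod3, the prolyl 4-hydroxylase alpha subunits P4ha1 and P4ha2, and the collagen chaperone Serpinh1. They were found by their symbol in the platform annotation. Of the 10 genes, 9 had at least 1 probe set annotated to them alone, with 16 such probe sets among the 45101 of the array, and those 9 are part of 18193 genes measured in this way. Loxl2 shares its 2 probe sets with the predicted gene Gm21451 in the annotation, so no value is given for it.

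Expression was measured in distal colorectum, about 1 cm above the anus, of C57BL/6J mice on 10 arrays of total RNA, 1 per sample. The groups were irradiated Pdgfc-/- (knockout, n = 3), irradiated Pdgfc+/+ (wild type, n = 3), unirradiated knockout (n = 2) and unirradiated wild type (n = 2). The irradiated mice were exposed locally to γ-rays under chloral hydrate (25 Gy, given at 2.14 Gy/min), and tissue was taken 8 weeks later. The labels give neither age, sex nor how Pdgfc was disrupted, and they call the replicates biological. Pdgfc encodes a secreted ligand of PDGF receptor alpha, a receptor of fibroblasts and other mesenchymal cells.

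Collagen chains are modified in the endoplasmic reticulum before they fold. Prolyl 4-hydroxylases make the hydroxyproline that keeps the triple helix stable, lysyl hydroxylases make the hydroxylysine used for sugar attachment and for crosslinks, and Serpinh1 (also called HSP47) binds the folded procollagen until it leaves the compartment. After secretion, lysyl oxidases oxidise lysine and hydroxylysine side chains of collagen and elastin, and the products react to form the covalent crosslinks that stiffen fibrotic tissue.

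Some facts of the whole series bear on every value. Signals are MAS5 values on the log2 scale, with array medians between 6.64 and 7.18. Pdgfc, on its brighter probe set, lay at 6.26 to 7.15 on irradiated knockout arrays and 8.56 to 8.75 on irradiated wild-type ones, and at 5.62 and 6.42 in unirradiated knockout against 7.01 and 7.50 in unirradiated wild type; where its probe sets lie relative to the disrupted part is not given. Xist and the Y-linked transcripts gave a female pattern on all 3 irradiated wild-type arrays and on replicate 1 of irradiated knockout, and a male pattern on the other 6 arrays. In wild type, sex and irradiation therefore cannot be told apart. The sex pattern also differs between the irradiated genotypes, and so enters their comparison and the interaction of genotype and irradiation. The 3′ minus 5′ log2 signal of the Gapdh controls, a gauge of RNA quality, was -0.54 to -0.35 on the irradiated arrays and -0.32 to 0.02 on the unirradiated ones. That of the Actb controls overlapped, at 0.44 to 0.58 on the irradiated arrays and 0.35 to 0.66 on the unirradiated ones. The part of RNA quality in the results was not tested. In whole tissue, more cells of a type and more RNA per cell cannot be told apart.

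Between irradiated and unirradiated arrays these genes differed in a divided way. Lox, Loxl1, Loxl3, P4ha2 and Serpinh1 were higher 8 weeks after irradiation in both genotypes, Plod1 was higher in wild type, and Plod2, Plod3 and P4ha1 were past the threshold in neither genotype on their brightest probe sets. In limma with Benjamini-Hochberg adjustment over the 12568 genes tested, at an adjusted p under 0.05, 5 of the 9 measured genes were higher in knockout and 6 of 9 in wild type, and 0 were lower in either. Over all genes tested, 14.0% were called higher in knockout and 15.8% in wild type, 9.50% and 8.34% were called lower, and 23.5% and 24.1% in either direction. The median log2 difference over the 9 genes was 0.83 in knockout and 0.89 in wild type, where over all genes it was 0.01 and 0.07. All 9 passed the filter on dim signals (brighter than the array's median on 2 or more arrays), but P4ha2 did so through the irradiated arrays alone, and Loxl3 lay above the median on 1 unirradiated array and Lox on 2. Every irradiated array lay above every unirradiated one for 5 of 9 genes in knockout and 6 of 9 in wild type. Over all genes tested this held for 28.4% and 30.8%, and the opposite for 25.6% and 22.8%, so separation of the arrays is common here. With no filter, 3 of 9 were called in knockout and 5 of 9 in wild type. The knockout count was 1 without either unirradiated knockout array, and 3 without replicate 1 or 3 of irradiated knockout or without replicate 2 or 3 of irradiated wild type. The wild-type count was 3 when replicate 1 of its unirradiated group was left out.

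**Figure D1:**
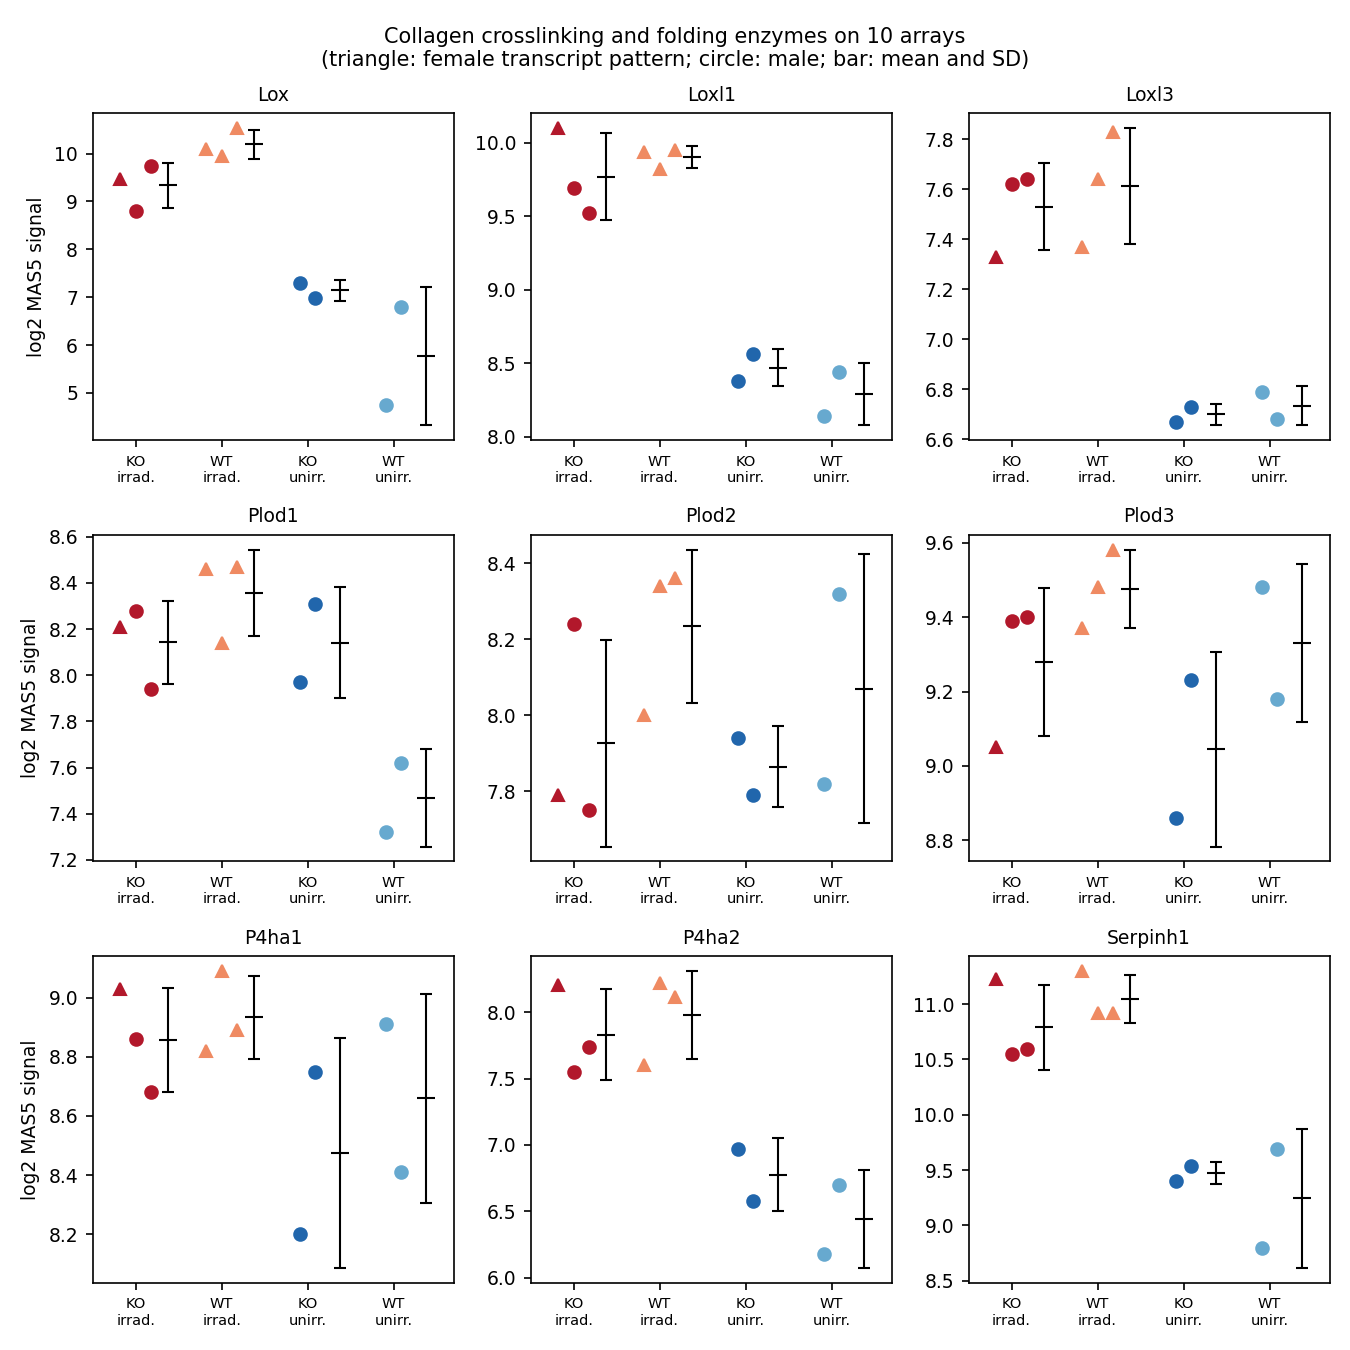
Log2 MAS5 signal (vertical axis) of the brightest probe set of each of the 9 measured genes on each of the 10 arrays, by group (horizontal axis). Triangles are arrays with the female transcript pattern, circles arrays with the male pattern, and bars give the group mean and SD. For Lox, Loxl1, Loxl3, P4ha2 and Serpinh1 all irradiated arrays lie above all unirradiated ones in both genotypes, as they do for 28.4% of all genes tested in knockout and 30.8% in wild type.

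Lox, the founding lysyl oxidase, had the largest difference of the 9 genes. On its brightest probe set (1416121_at) the log2 signal was 9.47, 8.81 and 9.73 in irradiated knockout and 7.30 and 6.98 in unirradiated knockout. It was 10.09, 9.95 and 10.53 in irradiated wild type, against 4.75 and 6.79 in unirradiated wild type. Every irradiated array lay above every unirradiated one in both genotypes, and the 2 unirradiated wild-type arrays stood far from each other. Lox rose by 2.20 ± 0.51 log2 units (SE, limma adjusted p = 0.014) in knockout, a 4.58-fold change. In wild type it rose by 4.42 ± 0.51 (SE, adjusted p = 0.00064), or 21.4-fold, a size that rests on unirradiated signals below the array median. Leaving out either unirradiated wild-type array gave 3.40 or 5.44.

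Another Lox probe set (1448228_at) had 9.31, 7.98 and 8.82 in irradiated knockout against 5.64 and 4.65 in unirradiated knockout. It had 9.74, 9.57 and 9.89 in irradiated wild type against 4.26 and 3.97 in unirradiated wild type. These give 3.56 ± 0.41 in knockout (SE, adjusted p = 0.00049) and 5.62 ± 0.41 in wild type (adjusted p = 8.7e-05) in the limma fit of all probe sets, where 19.9% and 18.8% of probe sets were called in either direction. All 4 unirradiated signals of this probe set lay below their array medians, so it passed the filter through the irradiated arrays alone and these sizes are taken against dim signal. The remaining Lox probe set (1437903_at) never exceeded 5.33 on any array and failed the filter.

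Loxl1, a lysyl oxidase needed for elastic fibre renewal in mice, had 10.10, 9.69 and 9.52 in irradiated knockout and 8.38 and 8.56 in unirradiated knockout (probe set 1451978_at). The wild-type values were 9.94, 9.82 and 9.95 with irradiation and 8.14 and 8.44 without. The irradiated arrays lay well above the unirradiated ones in both genotypes. The rise was 1.30 ± 0.19 in knockout (SE, limma adjusted p = 0.0018; 2.47-fold) and 1.61 ± 0.19 in wild type (adjusted p = 0.00072; 3.06-fold). In knockout Loxl1 stayed past the threshold whichever array was left out, at 1.14 to 1.43. A dimmer Loxl1 probe set (1436063_at) lay at 2.72 to 6.42 and failed the filter.

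Loxl3, a further member of the family with scavenger receptor domains, moved by less. Its values were 7.33, 7.62 and 7.64 in irradiated knockout and 6.67 and 6.73 in unirradiated knockout (probe set 1418269_at). In wild type they were 7.37, 7.64 and 7.83 with irradiation and 6.79 and 6.68 without. Every irradiated array was higher, though all signals sat close to the array medians. Loxl3 rose by 0.83 ± 0.26 in knockout (SE, limma adjusted p = 0.043) and by 0.88 ± 0.26 in wild type (adjusted p = 0.035). The call was lost in both genotypes under quantile normalization, with no filter and in the fit of only the groups compared, at adjusted p between 0.056 and 0.16. Leaving out any 1 knockout array ended the call in knockout, and leaving out replicate 2 or 3 of irradiated wild type ended it in both genotypes. In wild type it also ended without either unirradiated wild-type array and without replicate 3 of irradiated knockout.

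Serpinh1, the collagen-specific chaperone, had 11.23, 10.55 and 10.59 in irradiated knockout against 9.40 and 9.54 in unirradiated knockout (probe set 1450843_a_at). Wild-type arrays had 11.30, 10.92 and 10.92 with irradiation against 8.80 and 9.69 without. The lowest irradiated array exceeded the highest unirradiated one in each genotype. It rose by 1.32 ± 0.28 in knockout (SE, limma adjusted p = 0.011; 2.49-fold) and by 1.80 ± 0.28 in wild type (adjusted p = 0.0026; 3.48-fold). Its other probe set (1456733_x_at) gave 1.18 ± 0.21 in knockout (adjusted p = 0.0051) and 1.90 ± 0.21 in wild type (adjusted p = 0.00058), with the same separation of arrays.

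P4ha2, a catalytic subunit of prolyl 4-hydroxylase, had 8.21, 7.55 and 7.74 in irradiated knockout and 6.97 and 6.58 in unirradiated knockout (probe set 1417149_at). In wild type it had 7.60, 8.22 and 8.12 with irradiation and 6.18 and 6.70 without. Irradiated arrays were all higher. The rise was 1.06 ± 0.32 in knockout (SE, limma adjusted p = 0.039) and 1.54 ± 0.32 in wild type (adjusted p = 0.0088; 2.90-fold). In wild type the call was lost without replicate 1 of the unirradiated group (1.28, adjusted p = 0.072). In knockout it was lost with no filter (adjusted p = 0.057), without either unirradiated knockout array, without replicate 1 or 3 of irradiated knockout and without replicate 2 or 3 of irradiated wild type, at adjusted p between 0.053 and 0.21.

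P4ha1, the other catalytic subunit, did not pass on its brightest probe set (1452094_at). It had 9.03, 8.86 and 8.68 in irradiated knockout against 8.20 and 8.75 in unirradiated knockout, and 8.82, 9.09 and 8.89 in irradiated wild type against 8.91 and 8.41 in unirradiated wild type. The groups overlapped in both genotypes. The differences were 0.38 ± 0.23 in knockout (95% interval -0.12 to 0.89, limma adjusted p = 0.25) and 0.27 ± 0.23 in wild type (-0.23 to 0.78, adjusted p = 0.41). A dimmer P4ha1 probe set (1426519_at) disagreed for wild type. It had 8.05, 8.27 and 8.11 in irradiated wild type against 7.48 and 7.07 in unirradiated wild type, a rise of 0.87 ± 0.25 (SE, adjusted p = 0.037 over all probe sets). In knockout it had 7.49, 7.98 and 7.31 with irradiation and 7.41 and 7.46 without (0.16 ± 0.25, adjusted p = 0.69).

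Among the lysyl hydroxylases, Plod1 in wild type was the 1 call. Plod1, which hydroxylates lysines in the helical part of collagen, had 8.21, 8.28 and 7.94 in irradiated knockout against 7.97 and 8.31 in unirradiated knockout (probe set 1416289_at), and these arrays overlapped. In wild type it had 8.46, 8.14 and 8.47 with irradiation against 7.32 and 7.62 without, with no overlap. Its difference was 0.00 ± 0.22 in knockout (95% interval -0.48 to 0.49, limma adjusted p = 0.99), and in wild type it rose by 0.89 ± 0.22 (SE, adjusted p = 0.017). That call was lost when replicate 1 of the unirradiated wild-type group was left out (0.74, adjusted p = 0.12), when replicate 3 of the irradiated one was (0.83, adjusted p = 0.052), and under quantile normalization (0.59, adjusted p = 0.11). Its other probe set (1445893_at) ranged from 0.43 to 6.24 and failed the filter.

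Plod2, the lysyl hydroxylase that acts on the telopeptides where crosslinks form, had 7.79, 8.24 and 7.75 in irradiated knockout against 7.94 and 7.79 in unirradiated knockout (probe set 1416686_at). Wild-type signals were 8.0, 8.34 and 8.36 with irradiation and 7.82 and 8.32 without. All groups overlapped. The differences were 0.06 (95% interval -0.48 to 0.61) in knockout and 0.16 (-0.38 to 0.71) in wild type, at limma adjusted p = 0.87 and adjusted p = 0.66. On its other probe set (1416687_at) they were -0.03 ± 0.24 in knockout and -0.07 ± 0.24 in wild type (SE), and neither passed.

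Plod3, which also carries glycosyltransferase activity, had 9.05, 9.39 and 9.40 in irradiated knockout against 8.86 and 9.23 in unirradiated knockout (probe set 1415901_at). In wild type it had 9.37, 9.48 and 9.58 with irradiation and 9.48 and 9.18 without, again with overlap in both genotypes. The differences were 0.23 (95% interval -0.18 to 0.64) in knockout and 0.15 (-0.26 to 0.56) in wild type, at limma adjusted p = 0.39 and adjusted p = 0.59.

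**Figure D2:**
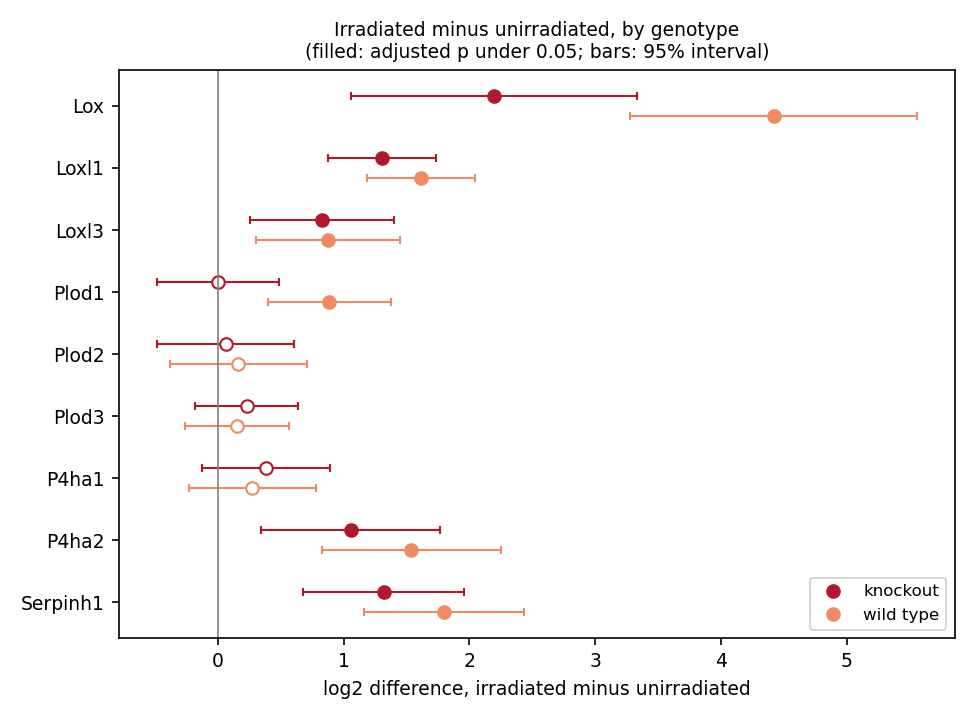
Log2 difference between irradiated and unirradiated arrays (horizontal axis) for each of the 9 genes, in knockout (upper marker) and wild type (lower marker); bars are 95% intervals and filled markers have a limma adjusted p under 0.05. Lox lies farthest from 0 at 2.20 in knockout and 4.42 in wild type, while the intervals of Plod2, Plod3 and P4ha1 include 0 in both genotypes.

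In knockout the irradiation difference can be taken within 1 sex pattern, since replicates 2 and 3 of irradiated knockout and both unirradiated knockout arrays had the male pattern. The differences of those 4 arrays come from a fit of 9 arrays without replicate 1, whose spread is estimated from the wild-type arrays too, among them those with the female pattern. In it, 3 of the 9 genes were called: Lox at 2.13 (limma adjusted p = 0.044), Loxl1 at 1.14 (adjusted p = 0.005) and Serpinh1 at 1.10 (adjusted p = 0.032). Loxl3 was at 0.93 and P4ha2 at 0.87, with adjusted p = 0.066 and adjusted p = 0.13. Wild type has no such comparison. With the sex pattern added as a covariate, estimated from 1 female array of irradiated knockout, 0 of 9 were called in wild type, where 16 of all genes tested were. The wild-type values were then 4.21 for Lox, 1.12 for Loxl1, 1.17 for Loxl3, 0.78 for Plod1, 1.13 for Serpinh1 and 0.97 for P4ha2, at adjusted p = 0.11 to 0.50. In knockout, 1 unirradiated array fewer left Loxl1 alone past the threshold (1 of 9 without either replicate), and Lox then had an adjusted p of 0.065 or 0.094 and Serpinh1 one of 0.076 or 0.055.

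Promoter sequence is shown for 4 of these genes, chosen to set Serpinh1 and P4ha2, which rose in both genotypes, beside P4ha1 and Plod3, whose brightest probe sets were past the threshold in neither. Each is the 250 bases before the start used in the RefSeq promoter table (GRCm38.p6), on the gene's strand, 5′ to 3′. For P4ha1 the last 99 of these bases, with its ACGTG match, lie inside the annotated span of the gene, and for the other 3 genes none do. Capitals mark matches on either strand to ACGTG (the core of a hypoxia-inducible factor site), GGGCGG (the GC box), CCAAT (bound by nuclear factor Y), the TATA box TATAAA and the heat shock element.
Serpinh1, chr7:99353240-99353489, minus strand: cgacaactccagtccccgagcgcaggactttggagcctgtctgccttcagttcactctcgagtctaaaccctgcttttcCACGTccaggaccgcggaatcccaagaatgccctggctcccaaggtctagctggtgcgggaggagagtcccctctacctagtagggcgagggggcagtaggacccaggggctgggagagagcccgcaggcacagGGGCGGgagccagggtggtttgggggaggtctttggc
P4ha2, chr11:54100674-54100923, plus strand: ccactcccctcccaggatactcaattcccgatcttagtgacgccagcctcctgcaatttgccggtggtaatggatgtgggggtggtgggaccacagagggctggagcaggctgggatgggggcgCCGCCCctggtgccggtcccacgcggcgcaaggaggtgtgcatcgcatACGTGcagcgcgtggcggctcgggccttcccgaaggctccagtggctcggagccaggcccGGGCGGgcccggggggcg
P4ha1, chr10:59323046-59323295, plus strand: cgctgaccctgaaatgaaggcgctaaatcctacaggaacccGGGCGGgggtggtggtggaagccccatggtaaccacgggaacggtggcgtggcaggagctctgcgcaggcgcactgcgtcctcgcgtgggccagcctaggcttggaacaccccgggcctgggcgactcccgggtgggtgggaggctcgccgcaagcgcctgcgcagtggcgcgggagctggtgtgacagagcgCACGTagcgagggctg
Plod3, chr5:136986769-136987018, plus strand: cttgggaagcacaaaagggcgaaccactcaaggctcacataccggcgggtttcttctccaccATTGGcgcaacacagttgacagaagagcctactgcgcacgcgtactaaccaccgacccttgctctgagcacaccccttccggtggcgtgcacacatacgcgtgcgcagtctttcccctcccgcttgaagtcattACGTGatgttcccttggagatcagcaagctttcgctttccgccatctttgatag

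The motif ACGTG was present in all 4 windows and absent from that of Plod1, the only other gene of the group with an entry in the promoter table. It is held by 16.6% of the 27025 promoters of the same length. In P4ha2 it lies at bases -78 to -74 from the start, in Plod3 at -54 to -50, and on the opposite strand at -171 to -167 in Serpinh1 and -16 to -12 in P4ha1. The match therefore stands both in promoters of genes that rose and in those of genes that did not pass on their brightest probe sets. GC boxes occur in Serpinh1, P4ha2, P4ha1 and Plod1 and in 32.9% of all promoters, and a CCAAT match occurs in Plod3 and in 34.5%. A TATAAA match occurs in Plod1 and in 13.0%. The heat shock element, held by 0.4% of promoters, was not found in the 5 windows, and the matches did not overlap. G and C made up 55.6% to 70.0% of the bases in the 5 windows, against a median of 52.0% over all promoters. The shares above were not matched for this. A match is a description of these letters and not of a bound site.

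The substrates of these enzymes rose with them. Of 14 collagen and elastin genes, 12 passed the filter; 11 were higher in irradiated knockout and 12 in irradiated wild type, and 0 were lower, with median log2 differences of 1.10 and 1.37. Col1a2 rose by 2.01 ± 0.16 in knockout and 2.08 ± 0.16 in wild type (SE, limma adjusted p = 0.00012 and adjusted p = 0.00019), and Col5a2 by 1.87 and 2.48. Col3a1 rose by 1.45 and 1.50, and the elastin gene Eln by 1.01 and 1.37. Col4a1 did not pass in knockout (0.57, limma adjusted p = 0.10) and rose by 1.21 in wild type. Other substrates rose by less in knockout, with Col4a2 at 0.73 ± 0.16, Col6a1 at 0.84 ± 0.14 and Col5a1 at 0.90 ± 0.16 (SE). The SE of the Eln value in knockout was 0.28. The intervals of Plod2 and Plod3 end at or below 0.71 in either genotype, and the knockout value of Col4a1 lies within their knockout intervals. The substrate values carry errors of their own, and whether substrates and enzymes differed in their change was not tested.

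Other genes that fold, process or crosslink collagen were again divided. Of 29 such genes, 26 were measured and 19 tested; with irradiation, knockout had 9 of them higher and 2 lower and wild type had 14 higher and 1 lower, at medians of 0.87 and 1.17. Those past the threshold in both genotypes included Rcn3, a calcium-binding protein of the endoplasmic reticulum, at 1.69 in knockout and 2.04 in wild type, and Crtap, of the prolyl 3-hydroxylation complex, at 1.23 and 1.37. The collagen-binding matrix protein Sparc rose by 1.59 and 2.0, the crosslinking transglutaminase Tgm2 by 1.39 and 1.17, and Pcolce, the enhancer of procollagen C-proteinase, by 1.89 and 1.88. Creb3l1, a transcription factor that activates collagen genes, fell by 1.39 in knockout and by 1.20 in wild type (limma adjusted p = 0.0091 and adjusted p = 0.016), and Mia3, a procollagen export receptor, fell by 0.73 in knockout (adjusted p = 0.013).

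P4hb, the protein disulfide isomerase that completes the prolyl 4-hydroxylase tetramer, was at 0.08 ± 0.14 in knockout and -0.03 ± 0.14 in wild type (SE, limma adjusted p = 0.72 and adjusted p = 0.90). The prolyl isomerase Ppib was at 0.28 and 0.33 (adjusted p = 0.17 and adjusted p = 0.11). P4hb, Ppib, Eln, Col4a1, Creb3l1, Mia3 and Xbp1 were named after their values were seen. Loxl4 and P4ha3, the remaining paralogues on this list, failed the filter.

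A list of endoplasmic reticulum stress genes was also counted, which holds chaperones and folding factors, the transcription factors Xbp1, Atf4 and Ddit3, and Herpud1, a component of protein degradation. In irradiated knockout 6 of 18 were higher and 0 lower, among them the chaperone Grp78 gene Hspa5 at 0.79 ± 0.20 (SE, limma adjusted p = 0.021), Manf at 1.13 and the transcription factor Xbp1 at 0.60. Irradiated wild type had 0 higher and 1 lower, and that 1 was Herpud1, which fell by 0.65. The summed linear signal of this list was 67230 to 77970 in unirradiated knockout and 102400 to 109500 in unirradiated wild type. With irradiation the sums overlapped, at 80790 to 111800 in knockout and 96270 to 115600 in wild type. Knockout minus wild type, the list medians were -0.53 without irradiation and -0.04 after it, with 0 of 18 genes called in either. Hypoxia response genes, a list that leaves out the enzymes described here, numbered 17 tested. With irradiation, 0 were higher and 3 lower in knockout, and 0 higher and 6 lower in wild type, with medians of -0.37 and -0.39. Car9 fell by 1.13 in knockout and by 1.50 in wild type, and Higd1a fell by 0.62 and by 1.11. Whether these lists differ between genotypes was not tested as lists.

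**Figure D3:**
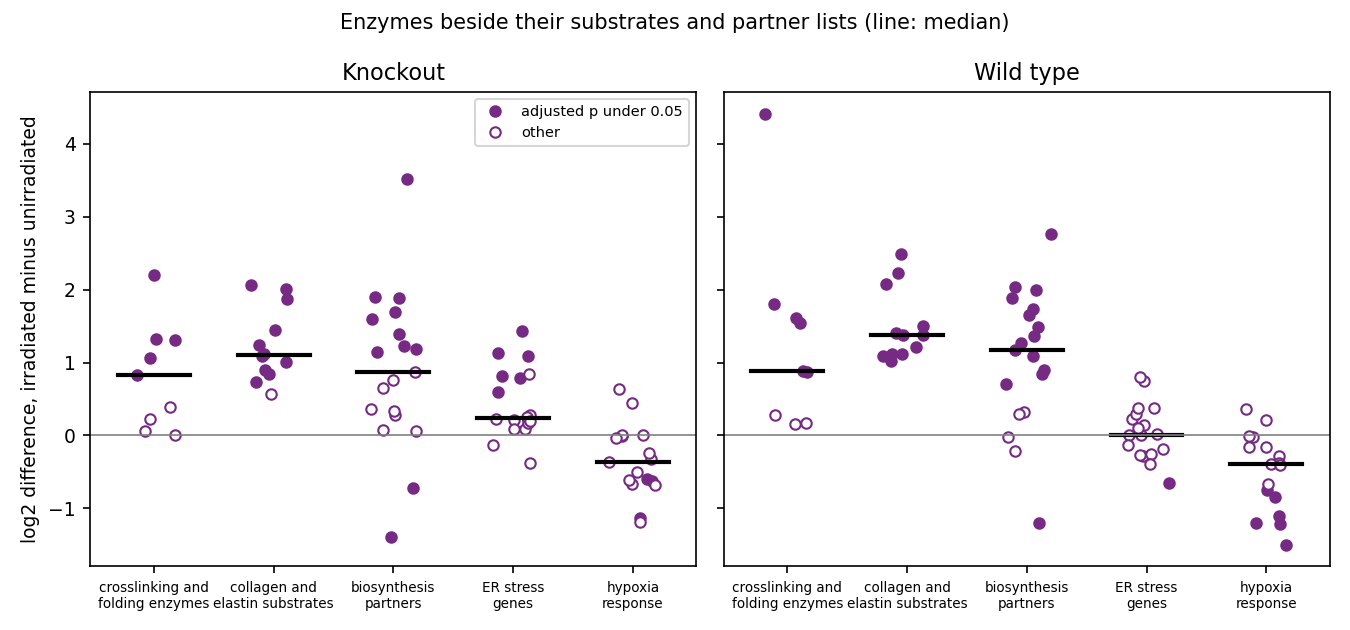
Log2 difference between irradiated and unirradiated arrays (vertical axis) for the 9 enzymes and for the tested genes of 4 lists (horizontal axis), in knockout (left) and wild type (right). Each point is a gene, filled where the limma adjusted p is under 0.05, and lines are medians: 0.83 and 0.89 for the enzymes, 1.10 and 1.37 for collagens and elastin, 0.87 and 1.17 for partners, 0.24 and 0.01 for endoplasmic reticulum (ER) stress genes, -0.37 and -0.39 for hypoxia genes.

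Markers of several cell types moved with irradiation too. Fibroblast markers were higher for 9 of 10 in knockout and 9 of 10 in wild type. Their summed linear signal was 33580 to 47750 in irradiated knockout, 40990 to 48790 in irradiated wild type, 7547 to 8680 in unirradiated knockout and 8656 to 9543 in unirradiated wild type. Endothelial markers were higher for 7 of 8 in each genotype, with sums of 2661 to 3698 in irradiated knockout, 3413 to 4174 in irradiated wild type, 1265 to 1489 in unirradiated knockout and 1040 to 1239 in unirradiated wild type. Macrophage markers were higher for 8 of 8, with sums of 12200 to 19300 and 22670 to 24700 in irradiated knockout and wild type, against 1503 to 2497 and 3396 to 3605 in the unirradiated groups of those genotypes. Fibroblasts are the main makers of fibrillar collagen. Squamous epithelium markers, which mark anal rather than colonic lining, were higher for 9 of 9 in knockout and 6 of 9 in wild type. Their sums were 15450 to 60570 in irradiated knockout, 33190 to 68660 in irradiated wild type, 675.9 to 711.3 in unirradiated knockout and 1227 to 2406 in unirradiated wild type. Absorptive colonocyte markers, which define the labelled tissue, were lower in 6 of 9 cases in knockout and 7 of 9 in wild type. They summed to 31460 to 80080 in irradiated knockout, 28760 to 35420 in irradiated wild type, 110200 to 138300 in unirradiated knockout and 116100 to 140700 in unirradiated wild type. Striated muscle markers were higher for 2 of 10 in knockout and 6 of 10 in wild type, with sums of 28830 to 76540 and 951.9 to 49520 on the irradiated arrays of those genotypes. Adipocyte markers were higher for 4 of 6 in each, with sums of 20400 to 49460 and 35460 to 55830; the unirradiated sums of both lists stand with the genotype comparison. Smooth muscle markers were past the threshold for 0 of 8 in both, with summed signals of 84450 to 104800 in irradiated knockout, 69860 to 82990 in irradiated wild type, 82250 to 87530 in unirradiated knockout and 74200 to 75080 in unirradiated wild type. The part of these cell types in the enzyme values was not tested.

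No gene of the group passed the test between knockout and wild type. After irradiation 0 of 9 genes were called in limma, 0 had an unadjusted p under 0.05 on their brightest probe sets, and over all 12568 genes 0% were called and 500 had such a p. All 9 differences, knockout minus wild type, were negative, with a median of -0.20 and 0.00 over all genes. They share arrays and are not independent of each other, and once the sex pattern was a covariate 4 of them were positive. Lox had the largest, at -0.85 ± 0.45 (SE, 95% interval -1.87 to 0.16, adjusted p = 1), and its 3 knockout arrays (8.81 to 9.73) lay below its 3 wild-type arrays (9.95 to 10.53). Over all genes tested, 4.04% were separated in this direction and 4.38% in the other. For the other 8 genes the arrays overlapped, and the 95% intervals reached no lower than -0.82 and no higher than 0.49. Between the irradiated genotypes the summed macrophage markers were lower in knockout and the smooth muscle markers higher, without overlap. Their part in these differences was not tested.

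The 4 further probe sets that passed the filter each had a lower mean in irradiated knockout than in irradiated wild type, at an unadjusted p under 0.05 in limma but an adjusted p = 1. Of all 25883 probe sets tested, 2.17% were lower and 3.94% differed in either direction at that unadjusted level, and 0% were called. Lox (1448228_at) had -1.02 ± 0.36 (SE) and Serpinh1 (1456733_x_at) -0.46 ± 0.19 (SE). P4ha1 (1426519_at) had 7.49, 7.98 and 7.31 in irradiated knockout against 8.05, 8.27 and 8.11 in irradiated wild type, a difference of -0.55 ± 0.22 (SE). These arrays did not overlap, which held in this direction for 4.82% of all probe sets tested.

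The other Plod2 probe set (1416687_at) lay lower in knockout in both conditions. It had 7.54, 7.49 and 7.81 in irradiated knockout against 8.16, 8.20 and 8.63 in irradiated wild type, and 7.91 and 7.37 in unirradiated knockout against 8.40 and 8.39 in unirradiated wild type. All knockout arrays were below all wild-type arrays of the same condition, as for 4.82% of all probe sets tested after irradiation and 17.3% without it; the probe set is singled out after its values were seen. The differences were -0.71 ± 0.21 after irradiation (SE, limma adjusted p = 1) and -0.75 ± 0.26 without it (adjusted p = 0.19), so neither passed; without irradiation 1.07% of all probe sets were called. The brightest Plod2 probe set gave -0.31 ± 0.22 and -0.21 ± 0.27, with overlapping arrays. Adding the sex pattern as a covariate was tried after seeing the data, and the irradiated difference was then -0.79 for this Plod2 probe set and -0.65 for that of P4ha1, but -0.42 for that of Lox and -0.11 for that of Serpinh1.

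**Figure D4:**
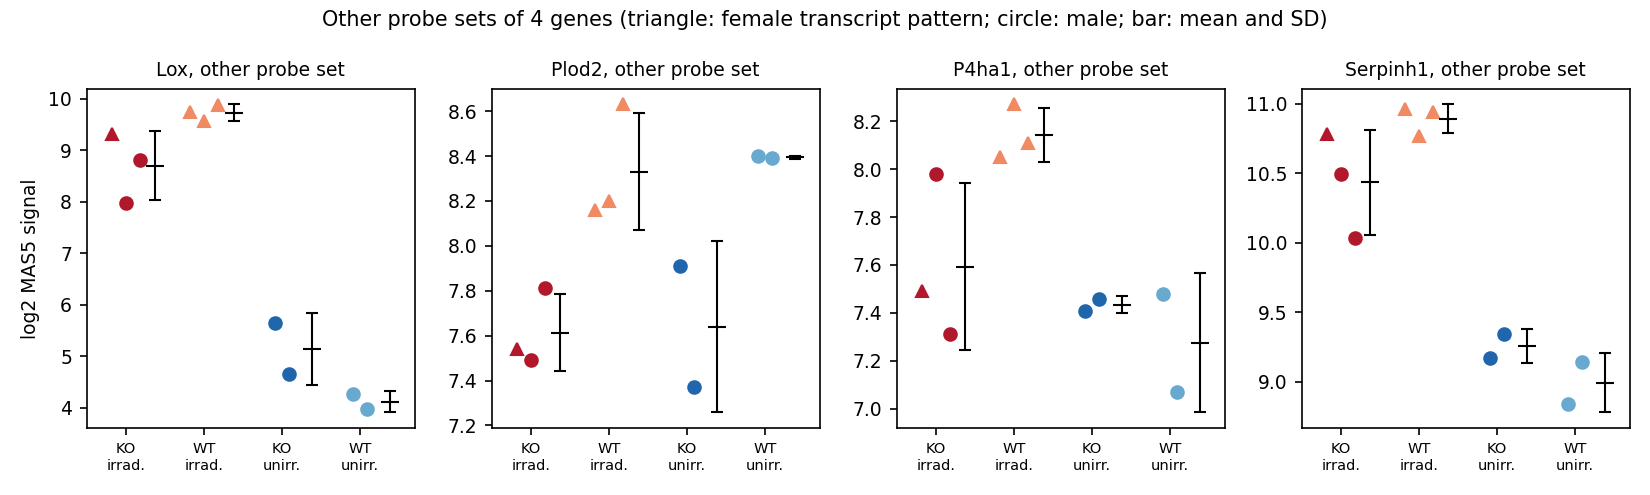
Log2 MAS5 signal (vertical axis) of the other tested probe set of Lox, Plod2, P4ha1 and Serpinh1 on each array, by group (horizontal axis); triangles are arrays with the female transcript pattern, circles those with the male pattern, and bars give mean and SD. For Plod2 the irradiated knockout arrays lie at 7.49 to 7.81 and the irradiated wild-type arrays at 8.16 to 8.63.

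Without irradiation 0 of 9 genes were called between genotypes, where 1.23% of all genes tested were, 0.422% higher and 0.804% lower. An unadjusted p under 0.05 was found for 2 of 9, against 16.6% of all genes. Lox was higher on both unirradiated knockout arrays (7.30 and 6.98) than on both unirradiated wild-type arrays (4.75 and 6.79), a difference of 1.37 ± 0.56 (SE, limma adjusted p = 0.26). Leaving out the second of those wild-type arrays gave 2.39 (adjusted p = 0.048), and leaving out the first gave 0.35. Plod1 was at 7.97 and 8.31 in unirradiated knockout and 7.32 and 7.62 in unirradiated wild type, a difference of 0.67 ± 0.24 (adjusted p = 0.2). Both arrays of 1 genotype lay above both of the other for 2 of 9 genes, Lox and Plod1, higher in knockout, where 28.9% of all genes were separated in that direction and 18.9% in the other. The other 7 differences lay between -0.28 and 0.33. Between the same groups the summed striated muscle markers were 6526 to 10560 in unirradiated knockout and 671.5 to 837.3 in unirradiated wild type, and the adipocyte markers 6198 to 8235 and 1463 to 1531. The sums given above did not overlap either for endothelial and smooth muscle markers, higher in knockout, and macrophage and squamous markers, lower in knockout. The part of these cell types in the enzyme values was not tested.

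**Figure D5:**
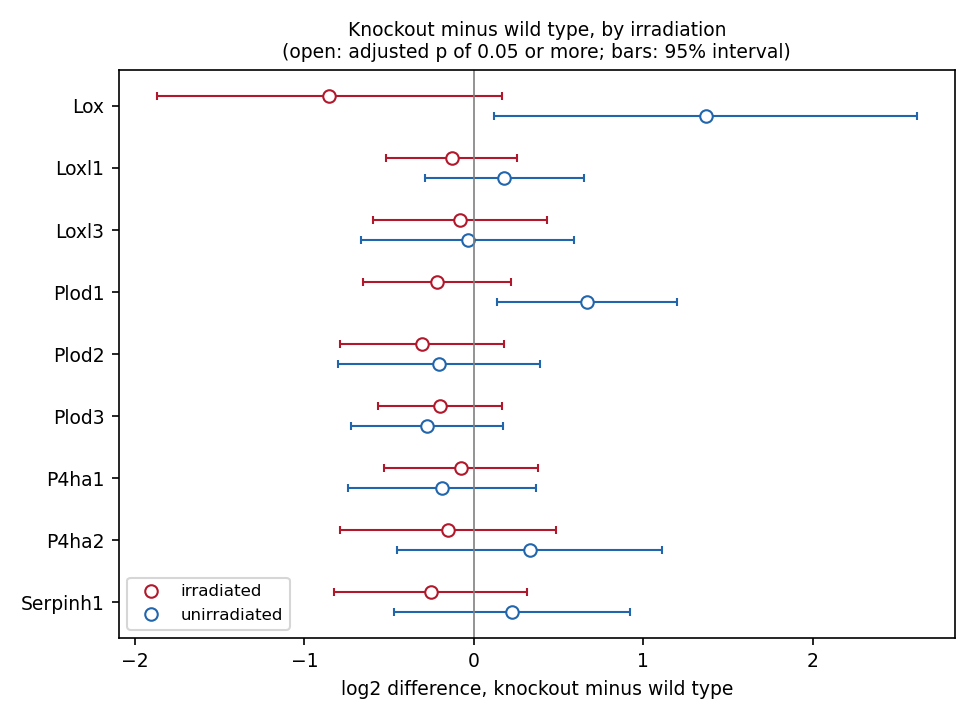
Log2 difference between knockout and wild type (horizontal axis) for each of the 9 genes, after irradiation (upper marker) and without it (lower marker); bars are 95% intervals, and all markers are open because no limma adjusted p was under 0.05. Lox is at -0.85 after irradiation and 1.37 without it.

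Whether irradiation acted differently by genotype was tested with the interaction, whose wild-type part cannot be told apart from sex. It called 0 of 9 genes, where 0.207% of all genes were called (0.175% higher and 0.0318% lower), and 2 of 9 had an unadjusted p under 0.05, against 10.4% of all genes. The Lox interaction, the knockout effect minus the wild-type effect, was -2.22 ± 0.72 log2 units (SE, limma adjusted p = 0.33). Its other probe set gave -2.06 ± 0.57 (adjusted p = 0.26), in a fit where 0.189% of probe sets were called; it rests on unirradiated signals that were all below the array medians. On the brightest probe set it was -3.24 (adjusted p = 0.043) when the second unirradiated wild-type array was left out and -1.20 when the first was. Plod1 had -0.89 ± 0.31 (adjusted p = 0.36). For Serpinh1 and P4ha2 the interaction was -0.48 in each case, with 95% intervals of -1.38 to 0.42 and -1.49 to 0.53. A smaller, an equal or a larger effect in knockout thus all lie within the error. With the sex pattern as a covariate, the brightest probe sets gave interactions of -2.08 for Lox and -0.82 for Plod1. Serpinh1 was then at -0.036 and P4ha2 at -0.10, and none of these was called.

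Across the 10 arrays, each gene was set beside the tested genes outside the group whose values correlated with it most. Lox was most like Col5a3, a fibrillar collagen gene (Pearson r = 0.989), Loxl1 like Spon2 (0.991), P4ha2 like Sema3d (0.990) and Serpinh1 like Epdr1 (0.988). Loxl3 was most like P2ry13 (0.985), Plod1 like Sox17 (0.937), Plod3 like Npdc1 (0.925) and P4ha1 like Fis1 (0.950). Plod2 had the lowest of these values, 0.871 with Ttc27. Each r is the highest found over all tested genes outside the group. How high such a maximum would stand for unrelated genes was not tested. For the 5 genes that rose in both genotypes, these values share the separation of irradiated from unirradiated arrays, and they describe 10 arrays only.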

How the data were processed

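Biotin-labelled cRNA from total RNA was hybridised to Affymetrix arrays, per the labels' protocols. The authors computed signals with MAS5 (version: not given in the sources used here), per the submitters' processing notes. Log2 is the scale of the deposited values, since after raising 2 to each, the mean trimmed at 2% per tail was 500 on every array. They were used as deposited. Of 45101 probe sets, 34945 had 1 gene, 932 several and 9160 none, beside 64 controls. Symbols were updated by gene ID from a GRCm38.p6 table for 34741. A gene was represented by its brightest 1-gene probe set (18193 genes) and tested if above the array median on 2 or more arrays (12568). A second fit took every probe set (25883).

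Limma 3.58.1 in R 4.3.3 fitted 1 mean per group over 10 arrays (6 residual degrees of freedom), with a variance prior following the mean; the code was tested on simulated data. P-values were adjusted by Benjamini-Hochberg at 0.05. They set a difference of means against the spread between these samples, moderated by that prior. The number of arrays limits the precision. All members were named, with up to 4 genes of each list past the threshold by smallest p (2 where none passed); genes outside this rule are marked, except that pairs complete both genotypes' values. Members and lists were chosen with earlier results of these data known. Alternatives were normalization, pseudocount, filter, variance prior, probe set rule, replicate block, groups fitted, sex pattern and leaving out each array. Same-numbered arrays deviated together at r between -0.18 and 0.16, so numbers were not taken as pairs.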

Additional observations from a re-analysis of the deposited data

How the results depend on the processing

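In knockout, irradiation gave 5 of 9 genes past the threshold as reported. The count was 4 under quantile normalization, 3 with no filter, with the replicate block, with the sex covariate and with only the groups compared, and 1 to 5 over single omissions. In wild type, with 6 as reported, it was 0 with the sex covariate, 4 under quantile normalization, 5 with the replicate block, no filter, the mean of probe sets or only the groups compared, and 3 to 6 over single omissions. Between genotypes without irradiation, and for the interaction, it was 0 to 1, the 1 being Lox without replicate 2 of unirradiated wild type; after irradiation it was 0 under every alternative run. The block ended the calls of Loxl3 in both genotypes and of P4ha2 in knockout and no other. Under the mean of probe sets Plod1 failed the filter, so it was not tested in that setting. Where an omission leaves 1 array in a group, that array is assumed to vary like the others. Small differences turned sign, none of them called. Under quantile normalization they were Plod2 in wild type (-0.10), Plod1 and Plod2 in knockout (-0.073 and -0.024), and the interactions of Loxl3 (0.16) and Plod2 (0.077). With the sex covariate they were Plod1 in knockout (-0.033), the genotype difference after irradiation of Loxl1 (0.20), P4ha1 (0.10), P4ha2 (0.23) and Serpinh1 (0.19), and the interactions of Loxl1 (0.019) and Plod3 (-0.15). With the mean of all probe sets they were Loxl1 between irradiated genotypes (0.31) and the interactions of Loxl1 (0.13) and P4ha1 (-0.30). Over single omissions, irradiation gave -0.084 to 0.41 for Plod2 in wild type, and -0.17 to 0.17 for Plod1 and -0.092 to 0.15 for Plod2 in knockout. The genotype difference without irradiation spanned -0.094 to 0.023 for Loxl3, -0.45 to 0.042 for Plod2, -0.46 to 0.088 for P4ha1 and -0.22 to 0.67 for Serpinh1. After irradiation it spanned -0.20 to 0.028 for Loxl3 and -0.16 to 0.013 for P4ha1. The interaction spanned -0.17 to 0.063 for Loxl3, -0.35 to 0.15 for Plod2, -0.11 to 0.26 for Plod3 and -0.16 to 0.38 for P4ha1. The causes were not tested.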
